A study of Mus musculus with 6 samples.

Results

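Cholesterol is built from acetyl-CoA along the mevalonate pathway, in which HMG-CoA is reduced to mevalonate, mevalonate is phosphorylated and decarboxylated to isoprene units, and these are joined to squalene, which is oxidised, closed to lanosterol and trimmed to cholesterol. The genes of the route are driven together by the transcription factor SREBP2, the product of Srebf2, which is held back in the endoplasmic reticulum while sterol is plentiful. Mouse oocytes are known to make little cholesterol themselves and to rely on the cumulus cells around them, and 1 intermediate of the route, the product of Cyp51, is known as a meiosis activating sterol. The 7 genes described here, Hmgcs1, Pmvk, Mvd, Sqle, Lss, Cyp51 and Dhcr7, encode enzymes of this route, and all 7 were found by symbol among the 60193 genes of the expression table. None of them acts in the uptake of cholesterol, so genes of uptake are described from a separate list.

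Polyadenylated RNA was sequenced from MII oocytes, that is, oocytes arrested at the second meiotic metaphase, of aged ICR mice of 42-45 weeks. In the IVM group, germinal vesicle oocytes were collected 46 h after PMSG (5 IU), freed of cumulus cells and matured for 12 h in M16 medium, whereas in the IVO group the mice received PMSG and, 46 h later, hCG (5 IU), and ovulated oocytes were taken from the oviduct 14 h after hCG and freed of cumulus cells with hyaluronidase. Each group had 3 samples, and each sample pooled 20 oocytes from 3 mice, so that lower RNA in every oocyte and a mixture of oocytes with and without a transcript cannot be told apart. Culture, hormone treatment and the presence of cumulus cells during maturation changed together between the groups, and their parts cannot be told apart.

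The values are FPKM (fragments per kilobase of transcript scaled to the depth of the library), a level per length that can be compared between genes. The low values fell on steps that gave an inferred depth of 16500000 to 19300000 fragments per sample, with 78.2 to 80.3% of the low values within 0.15 of a whole fragment. The same steps gave an inferred fragment length of 200-216 bases in IVM and 248-264 bases in IVO. Summed over all genes, FPKM was 1826738-2111777 in IVM and 1560813-1643682 in IVO. The part of either in the differences between the groups was not tested. The 12 oocyte markers were at 1 FPKM or more in all 6 samples and summed to 22043-24995 FPKM in IVM and 19899-25174 FPKM in IVO. Oosp1 (mean 12407 FPKM over the 6 samples) and H1f8 (5272 FPKM) were the largest parts, so the sum says little of the others. By the rule given below, Zp1, Zp2, Zp3 and Nlrp5 were DEGs lower in IVO, with Zp2 averaging 562 FPKM in IVM and 39.9 FPKM in IVO. Dazl (742 FPKM in IVM and 1230 FPKM in IVO) and Oosp1 had higher means in IVO. The 18 cumulus or granulosa cell markers summed to 73.7-95.3 FPKM in IVM and 51.7-79.1 FPKM in IVO. Of these, 5 were at 1 FPKM or more in every sample. Over the 6 samples they were Fshr (6.14-16.3 FPKM), Amhr2 (3.14-27.89), Cyp19a1 (16.25-23.13), Nr5a2 (13.5-39.19) and Col4a1 (2.1-5.12). Amh and Nr5a1 were listed at 0 in all 6 samples. The 8 blood cell markers summed to 1.63-2.86 FPKM in IVM and 3.85-14.7 FPKM in IVO, and the 6 oviduct markers to 2.93-3.16 and 3.40-5.76 FPKM. The 2 groups differed across the whole table, since the median log2FC (IVO against IVM, on log2(FPKM + 1)) of the 18818 genes that averaged 1 FPKM or more was -0.30. A gene was called a DEG where the absolute log2FC was at least 1 and the adjusted p from limma, corrected over all 18818 genes, was under 0.05. By this rule 17.9% of the tested genes were DEGs lower in IVO, and DEGs with higher values made up 0.606%.

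The 7 genes lie on 7 chromosomes of GRCm39, and the promoters of 6 of them, from 250 bases before to 50 bases after the annotated start, differ in the short motifs linked to sterol control. Those of Hmgcs1 and Pmvk, the members with the highest levels, and of Mvd, the member with the lowest, are shown so that motifs and levels can be compared. Capitals mark TCACNCCAC, a form of the sterol regulatory element bound by SREBP2, the CCAAT box (CCAAT), bound by NF-Y, and the GC box (GGGCGG), bound by Sp1, each searched on both strands and printed 5′ to 3′ along the strand of the gene.
Hmgcs1 (chr13:120151732-120152031, plus strand): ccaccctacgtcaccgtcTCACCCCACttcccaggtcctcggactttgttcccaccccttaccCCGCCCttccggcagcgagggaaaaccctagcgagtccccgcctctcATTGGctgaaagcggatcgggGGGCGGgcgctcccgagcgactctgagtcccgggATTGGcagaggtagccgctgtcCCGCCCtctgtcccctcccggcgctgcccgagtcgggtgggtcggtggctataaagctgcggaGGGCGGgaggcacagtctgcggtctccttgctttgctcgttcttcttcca
Pmvk (chr3:89366175-89366474, plus strand): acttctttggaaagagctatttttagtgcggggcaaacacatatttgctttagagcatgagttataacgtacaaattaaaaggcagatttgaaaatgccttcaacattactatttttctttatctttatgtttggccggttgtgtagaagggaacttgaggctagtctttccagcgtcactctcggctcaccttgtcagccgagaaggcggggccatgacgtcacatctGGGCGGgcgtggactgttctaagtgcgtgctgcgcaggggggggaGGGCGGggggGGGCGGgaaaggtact
Mvd (chr8:123170275-123170574, minus strand): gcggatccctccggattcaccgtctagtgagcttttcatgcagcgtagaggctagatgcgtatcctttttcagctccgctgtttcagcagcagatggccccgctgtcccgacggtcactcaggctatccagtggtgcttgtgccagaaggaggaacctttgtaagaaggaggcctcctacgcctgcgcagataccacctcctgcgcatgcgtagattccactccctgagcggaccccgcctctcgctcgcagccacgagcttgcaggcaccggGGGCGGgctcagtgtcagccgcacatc
The sterol regulatory element was found in 1 of the 6 promoters analysed here, that of Hmgcs1, at position -232 from the start, and in 1.34% of 21770 promoters of the same length. The CCAAT box was found 2 times in the promoters of Hmgcs1 and of Sqle, 1 time in that of Cyp51 and 0 times in those of Pmvk, Mvd and Dhcr7, and in 39.9% of all promoters. The GC box was present in 5 of the 6 promoters (5 matches in Sqle, 4 in Hmgcs1, 3 in Pmvk, 1 in Mvd and in Cyp51, 0 in Dhcr7) and in 42.5% of all promoters. The promoter of Pmvk, the member with the highest level, held neither the sterol regulatory element nor the CCAAT box in these letters, and neither did that of Mvd. The starts used for Pmvk and Dhcr7 were those of their canonical transcripts and lie inside the annotated genes. These genes begin at 89361758 (Pmvk) and 143376740 (Dhcr7), while the windows begin at 89366175 and 143383115. Sequence at other starts of these genes was not searched, so a motif absent here can be present there. These matches describe the letters of the window only.

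The members differed widely in level. Pmvk and Hmgcs1 were abundant, Sqle and Cyp51 were close to 1-2 FPKM, and Dhcr7, Lss and Mvd had mean values under 1 FPKM. Among the 13154 tested Ensembl genes, Pmvk was above 94.5% of genes in IVM and 91.9% in IVO, and Hmgcs1 was above 85.9% in both groups. Sqle was above 10.5% in IVM and 21.5% in IVO, and Cyp51 above 1.02% and 10.2%. Dhcr7, Lss and Mvd were above at most 1.22% of the tested genes in either group. This low rank was fixed in advance, since tested genes average 1 FPKM or more and these 3 do not. The low ranks of Sqle and Cyp51, close to that filter, likewise hold among tested genes only. In order of mean FPKM over the 6 samples, Pmvk was above Hmgcs1 in each sample, most closely in IVO3 (107 against 90.6 FPKM), and Hmgcs1 was above Sqle. Sqle was above Cyp51 in each sample, most closely in IVO3 (1.67 against 1.62 FPKM), and Lss was above Mvd, also most closely in IVO3 (0.16 against 0.15 FPKM). Cyp51 was above Dhcr7, and Dhcr7 above Lss, in 4 of 6 samples, so the order of these 3 does not exceed their spread. The ranges over the 6 samples overlapped for each pair of neighbours except Hmgcs1 and Sqle.

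**Figure D1:**
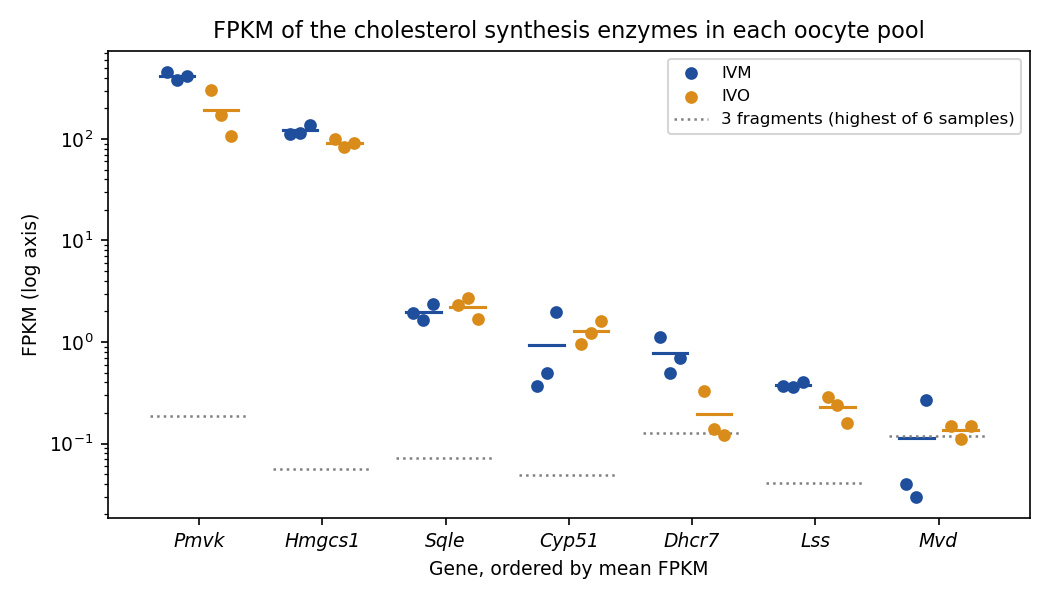
FPKM (log axis) of the 7 members in the 3 IVM and 3 IVO pools, with each point 1 pool (replicates 1 to 3 from left to right), each bar the group mean and each dotted line the FPKM that 3 fragments would give. Pmvk and Hmgcs1 lie at 83.4 FPKM or more in every pool, while Mvd lies between 0.03 and 0.27 FPKM, on both sides of the line for 3 fragments.

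Hmgcs1 (ENSMUSG00000093930, chromosome 13 from 120151915 to 120170470, plus strand) encodes the cytosolic HMG-CoA synthase, which makes the substrate of the rate-limiting reductase. Its FPKM was 110.8, 115.6 and 137.3 in IVM1 to IVM3 and 99.8, 83.4 and 90.6 in IVO1 to IVO3. Every IVM value was above every IVO value, and the nearest were IVM1 and IVO1. IVM oocytes averaged 121 ± 14.1 FPKM (SD, n = 3) and IVO oocytes 91.2 ± 8.22 FPKM (SD, n = 3). The log2FC was -0.40 (SE 0.17, 95% confidence interval -0.82 to 0.01, adjusted p = 0.141 from limma), which did not pass the test and differed by -0.11 from the median of all tested genes. Hmgcs1 shares 77 exon bases with Nim1k on the opposite strand, which was at 1.03-1.70 FPKM. With quantile normalization the sign turned, at 0.12 (adjusted p = 0.642 from limma).

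Pmvk (ENSMUSG00000027952, chromosome 3 from 89361758 to 89376323, plus strand) encodes phosphomevalonate kinase, which adds the second phosphate to mevalonate. Its FPKM was 457, 385.1 and 421 in IVM and 300.5, 172.7 and 107 in IVO. The lowest IVM sample was above the highest IVO sample, and the IVO samples were spread more widely than the IVM samples, with IVO1 nearest to the IVM group. IVM oocytes averaged 421 ± 36.0 FPKM (SD, n = 3) and IVO oocytes 194 ± 98.2 FPKM (SD, n = 3), 2.18-fold higher in IVM. The log2FC was -1.24 (SE 0.35, 95% confidence interval -2.06 to -0.41, adjusted p = 0.0422 from limma), and Pmvk was the only one of the 4 tested members that was a DEG, where 17.9% of all tested genes were DEGs lower in IVO. Its log2FC differed by -0.94 from that of the median gene.

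The call of Pmvk was close to the threshold. It held in 5 of 17 alternative fits, with an adjusted p between 0.0127 and 0.174 from limma, and the log2FC was negative in all 17. It was lost without IVM1 (log2FC -1.18, adjusted p = 0.126 from limma), IVM2 (-1.30, 0.101), IVM3 (-1.24, 0.114), IVO2 (-1.22, 0.102) and IVO3 (-0.88, 0.0721), and only without IVO1 was it kept among these fits, at -1.62 (adjusted p = 0.0127 from limma). With median-ratio scaling, which sets the median gene close to 0, the log2FC was -0.92 (adjusted p = 0.0911 from limma). No exon of another annotated gene overlaps Pmvk.

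Mvd (ENSMUSG00000006517, chromosome 8 from 123160336 to 123170324, minus strand) encodes mevalonate diphosphate decarboxylase, which yields isopentenyl diphosphate, the isoprene unit. It was at 0.04, 0.03 and 0.27 FPKM in IVM and 0.15, 0.11 and 0.15 FPKM in IVO. The groups overlapped, and IVM3 was the highest sample. These levels correspond to about 0.899 to 7.99 fragments per sample in IVM and 2.96 to 4.08 in IVO, around the level of 3 fragments (0.10 to 0.12 FPKM), so no difference was detectable at this depth.

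Sqle (ENSMUSG00000022351, chromosome 15 from 59186869 to 59203043, plus strand) encodes squalene epoxidase, which adds the first oxygen and is the second control point of the route. Its FPKM was 1.92, 1.63 and 2.38 in IVM and 2.30, 2.74 and 1.67 in IVO. The groups overlapped. IVM oocytes averaged 1.98 ± 0.378 FPKM (SD, n = 3) and IVO oocytes 2.24 ± 0.538 FPKM (SD, n = 3), a log2FC of 0.11 (SE 0.25, 95% confidence interval -0.47 to 0.70, adjusted p = 0.779 from limma). Sqle shares 470 exon bases with Washc5 on the opposite strand, which was at 4.18-5.73 FPKM in IVM and 1.27-2.21 FPKM in IVO. Since strand was not recorded by the kit, reads of these bases cannot be assigned to either gene.

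Lss (ENSMUSG00000033105, chromosome 10 from 76367298 to 76392976, plus strand) encodes lanosterol synthase, which closes the sterol rings. It was at 0.37, 0.36 and 0.40 FPKM in IVM and 0.29, 0.24 and 0.16 FPKM in IVO. The 3 IVM values lay close together and above all 3 IVO values. They correspond to about 27.2 to 34.0 fragments in each IVM and 12.7 to 23.2 in each IVO sample. Lss was below the filter of 1 FPKM and was not tested, and without the filter its log2FC was -0.16 (adjusted p = 0.206 from limma).

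Cyp51 (ENSMUSG00000001467, chromosome 5 from 4123416 to 4154751, minus strand) encodes lanosterol 14-alpha-demethylase, whose product is the meiosis activating sterol of follicular fluid. Its FPKM was 0.37, 0.49 and 1.96 in IVM and 0.96, 1.24 and 1.62 in IVO. The groups overlapped because IVM3 was the highest of all samples, while IVM1 and IVM2 were the lowest. IVM oocytes averaged 0.940 ± 0.885 FPKM (SD, n = 3) and IVO oocytes 1.27 ± 0.331 FPKM (SD, n = 3), a log2FC of 0.31 (SE 0.36, 95% confidence interval -0.54 to 1.16, adjusted p = 0.584 from limma). Without IVM3 the log2FC was 0.66, and without IVM1 it was 0.10, neither passing the test. Cyp51 shares 1253 exon bases with Akap9 on the opposite strand, which was at 14.2-18.8 FPKM in IVM and 18.04-19.7 FPKM in IVO, so reads of Akap9 and Cyp51 cannot be told apart there.

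Dhcr7 (ENSMUSG00000058454, chromosome 7 from 143376740 to 143402149, plus strand) encodes 7-dehydrocholesterol reductase, the last step to cholesterol. It was at 1.13, 0.50 and 0.69 FPKM in IVM and 0.33, 0.14 and 0.12 FPKM in IVO. All IVM values were above all IVO values, and the lowest, IVO3, was at about 3.03 fragments, whereas the highest, in IVM, was at about 26.8 fragments. IVM oocytes averaged 0.773 ± 0.323 FPKM (SD, n = 3) and IVO oocytes 0.197 ± 0.116 FPKM (SD, n = 3), 3.93-fold higher in IVM. Dhcr7 was below the filter, and without the filter its log2FC was -0.56 (adjusted p = 0.0809 from limma) and, with a pseudocount of 0.1 in place of 1, -1.56 (adjusted p = 0.116 from limma). For the 3 members below the filter, an exact two-sided permutation test of 3 samples against 3 cannot give a p below 0.1.

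Of the 7 members, 4 (Hmgcs1, Pmvk, Lss and Dhcr7) had groups that did not overlap, all with lower values in IVO, and 0 had higher ones. Of the 4 tested members this held for 2, where 32.6% of all tested genes had groups that did not overlap and were lower in IVO, and among the 32852 genes fitted without the filter the share was 22.6%. The median log2FC of the 4 tested members was -0.14, against -0.30 for all tested genes, and it turned positive with median-ratio scaling (0.12), quantile normalization (0.33) and removal of the trend with transcript length (0.05).

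**Figure D2:**
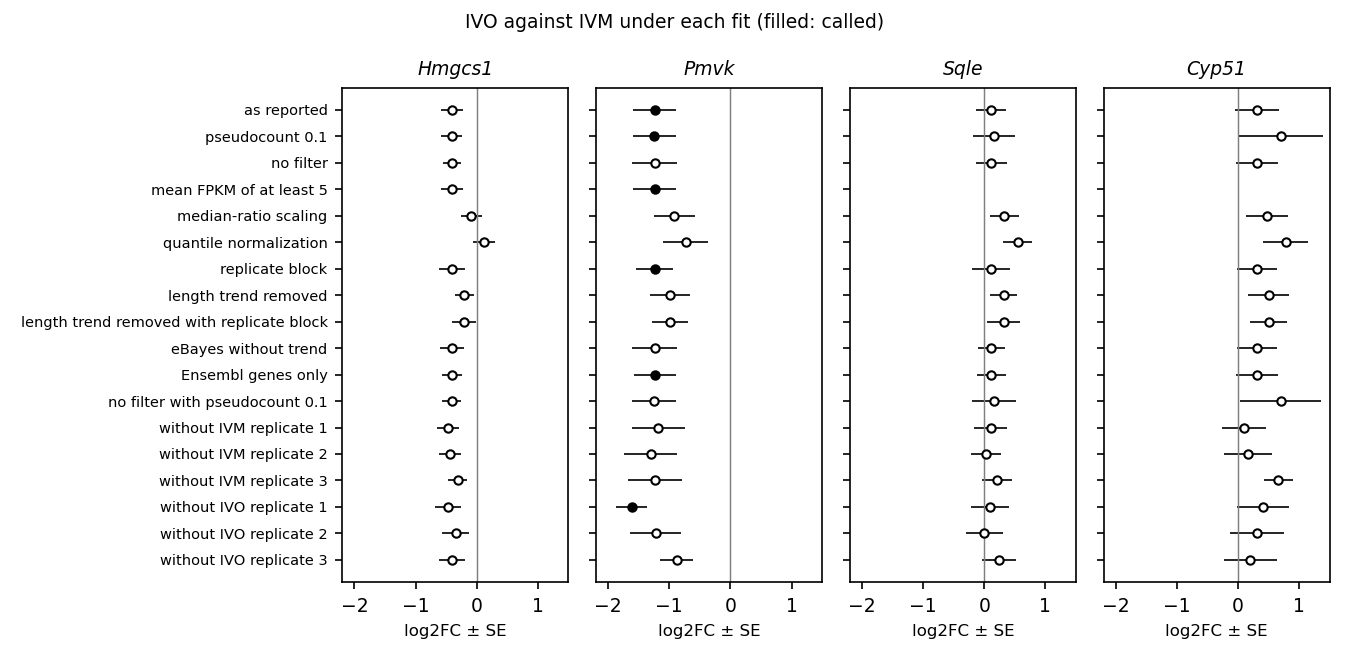
log2FC (IVO against IVM, with SE as bars) of the 4 tested members under the fit as reported and 17 alternatives, with filled points for DEGs and no point where the member was not fitted. Pmvk stays below 0 in all fits and is filled in the fit as reported and in 5 others, Hmgcs1 crosses 0 with quantile normalization, and Sqle and Cyp51 are above 0 in each fit that holds them.

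Along the route, 20 enzyme genes were placed in order from acetyl-CoA to cholesterol. Of these, 7 had a mean of 20 FPKM or more, 7 were between 1 and 20 FPKM and 6 were under 1 FPKM, and the levels did not follow the order of the steps. In the mevalonate part, Pmvk (mean 421 FPKM in IVM) stood between Mvk, the mevalonate kinase one step before it, and Mvd one step after it. Mvk was at 0.04, 0 and 0.22 FPKM in IVM and 0.08, 0.07 and 0.34 FPKM in IVO, so both neighbours were under 1 FPKM in all samples. In the sterol part, Lbr, Msmo1 and Sc5d were abundant, while Tm7sf2 and Dhcr7 were under 1 FPKM on average, as was Lss in the squalene part. The level of Lbr is uncertain, since it shares exon bases with the far more abundant Dnah14 on the opposite strand, as described below.

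**Figure D3:**
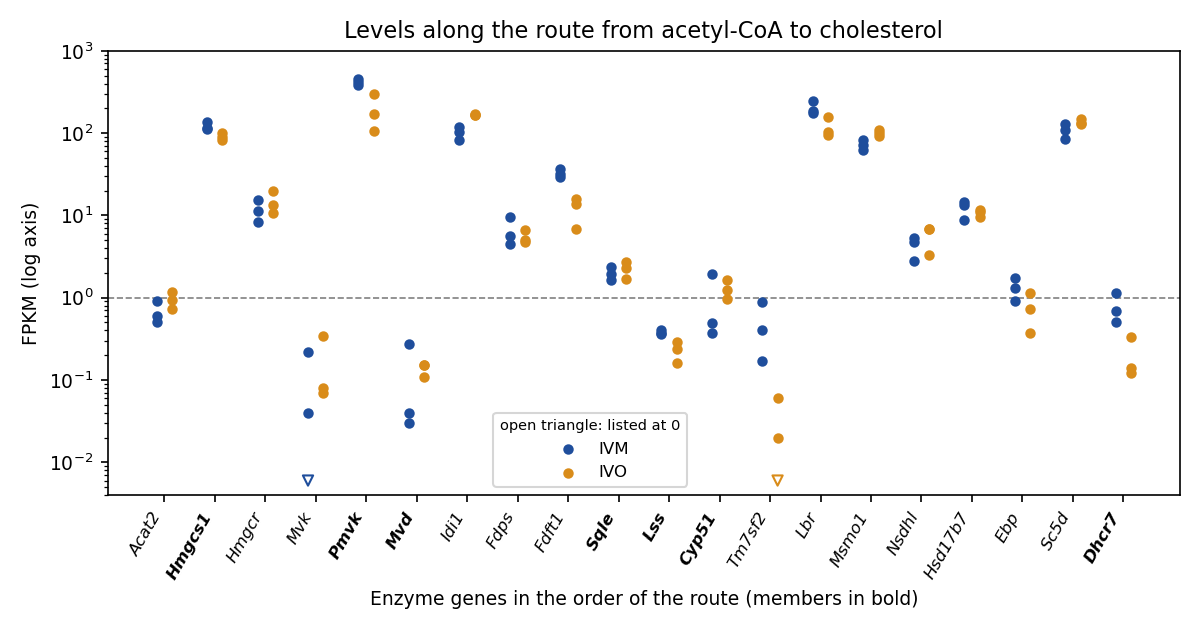
FPKM (log axis) of the 20 enzyme genes in the order of the route, with each point 1 of the 3 IVM or 3 IVO pools, members in bold, open triangles for samples listed at 0 and the dashed line at 1 FPKM. Abundant and scarce genes alternate along the route, with Pmvk at 107 to 457 FPKM between Mvk and Mvd.

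In the list of 15 other enzymes of the route to cholesterol, 11 were tested, 2 were lower DEGs in IVO (17.9% over all tested genes) and 0 were higher ones (0.606%), and the median log2FC was -0.14. Fdft1, the squalene synthase and 1 of these DEGs, was at 29.1, 31.4 and 36.2 FPKM in IVM and 13.8, 15.7 and 6.88 FPKM in IVO, a log2FC of -1.40 (SE 0.31, adjusted p = 0.0183 from limma), and the call was lost without IVM1 (adjusted p = 0.0567), IVM2 (0.06) or IVM3 (0.0659) in limma. Fdft1 shares 1184 exon bases with Ctsb on the opposite strand, at 2.34-11.2 FPKM in IVM and 1.36-3.19 FPKM in IVO.

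The most abundant enzyme genes that were not DEGs were Lbr, Idi1 and Sc5d. Idi1, the isomerase of isopentenyl diphosphate just after Mvd, went the other way from Pmvk. It was at 118, 102 and 83.3 FPKM in IVM and 165.6, 172.1 and 165.6 FPKM in IVO, and all IVO values were above all IVM values. Its log2FC of 0.74 (SE 0.18, adjusted p = 0.0281 from limma) was under the fold threshold, and under median-ratio scaling and quantile normalization it was a DEG higher in IVO. An adjusted p under 0.05 was found with higher values in IVO for 1.87% of all tested genes and in either direction for 23.4%, and groups that did not overlap with higher values in IVO for 9.62%. Lbr, the sterol C14 reductase that also binds lamin, had a log2FC of -0.79 (adjusted p = 0.0604 from limma), but it shares 1391 exon bases with Dnah14 on the opposite strand, which was at 844 to 3140 FPKM. Sc5d, the sterol C5 desaturase, had a log2FC of 0.35 (adjusted p = 0.253 from limma). Tm7sf2, the other C14 reductase, which acts on the product of Cyp51, was not tested, with 0.89, 0.40 and 0.17 FPKM in IVM and 0, 0.02 and 0.06 FPKM in IVO.

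Of the 12 genes of the isoprenoid branches, which use the same isoprene units for dolichol, ubiquinone and protein prenylation, all 12 were tested, 2 were lower DEGs in IVO (17.9% over all tested genes) and 0 were higher ones (0.606%), and the median log2FC was -0.11. Icmt, which methylates prenylated proteins, was at 7.83, 10.2 and 13.3 FPKM in IVM and 1.88, 2.37 and 2.60 FPKM in IVO, a log2FC of -1.78 (SE 0.25, adjusted p = 0.0042 from limma), and was a DEG in all 17 alternatives. It shares 1371 exon bases with Rnf207 on the opposite strand, which was at 2.13-3.48 FPKM in IVM and 0.40-1 FPKM in IVO. Dhdds, a subunit of the enzyme that makes the dolichol chain, was at 244, 432 and 259 FPKM in IVM and 186.5, 81.8 and 55.6 FPKM in IVO, a log2FC of -1.66 (SE 0.45, adjusted p = 0.0369 from limma). Its call held in 5 of 17 alternatives and, among the fits without 1 sample, only without IVO1 (the others gave an adjusted p of 0.0831 to 0.125 from limma); with the replicate number as a block it was also lost (adjusted p = 0.0529 from limma). Nus1, the partner of Dhdds in that enzyme, was at 70.5-95.5 FPKM in IVM and 93.8-103.8 FPKM in IVO (log2FC 0.33, adjusted p = 0.252 from limma). Pdss2 and Fntb were the other abundant genes of this list that were not DEGs, at -0.63 each.

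Of the 16 genes of sterol sensing, 14 were tested, 4 were lower DEGs in IVO (17.9% over all tested genes) and 0 were higher ones (0.606%), and the median log2FC was -0.22. The factor of the route itself, Srebf2, was at 590.3, 309 and 343 FPKM in IVM and 134, 30.4 and 77.9 FPKM in IVO, and all IVM values were above all IVO values. IVM oocytes averaged 414 ± 154 FPKM (SD, n = 3) and IVO oocytes 80.9 ± 52.1 FPKM (SD, n = 3), 5.12-fold higher in IVM, with a log2FC of -2.52 (SE 0.53, adjusted p = 0.0154 from limma). The call held in 15 of 17 alternatives and was lost without IVM1 (-2.23, adjusted p = 0.0663 from limma) and IVM3 (-2.62, 0.0527). Insig2, which holds SREBP2 in the endoplasmic reticulum when sterol is plentiful, was at 7.88, 8.06 and 7.58 FPKM in IVM and 3.07, 3.61 and 2.78 FPKM in IVO (log2FC -1.09, adjusted p = 0.0095 from limma), but with median-ratio scaling its log2FC was -0.83, under the threshold. Another DEG was Mylip, a ubiquitin ligase that limits lipoprotein uptake (log2FC -1.16, adjusted p = 0.0238 from limma). It was at 1.99, 1.84 and 3.23 FPKM in IVM and 0.35, 0.43 and 0.68 FPKM in IVO. Mylip thus passed the filter of 1 FPKM only through the IVM samples, and its call held in 8 of 16 alternatives. Mylip lost its call without IVM3 (log2FC -0.98), IVO1 (adjusted p = 0.07) and IVO2 (0.0691) and with the replicate block (0.0544), all in limma. It also lost the call with median-ratio scaling (log2FC -0.98), quantile normalization (-0.66) and the length trend removed (-0.95, with and without the block).

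Other genes of sterol sensing did not pass the test. Insig1 was at 27.7-48.4 FPKM in IVM and 27.5-32.8 FPKM in IVO (log2FC -0.19, adjusted p = 0.614 from limma). Mbtps2, a protease that frees the active part of SREBP2, had a log2FC of 0.14 (adjusted p = 0.643 from limma). Srebf1, the factor mainly of fatty acid synthesis, was at 21.8, 6 and 7.88 FPKM in IVM and 15.8, 32.9 and 33.8 FPKM in IVO (log2FC 1.27, adjusted p = 0.109 from limma), and it became a DEG higher in IVO without IVM1 and with quantile normalization.

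Of the 22 genes of uptake, transport, storage and export of cholesterol, 13 were tested, 2 were lower DEGs in IVO (17.9% over all tested genes) and 0 were higher ones (0.606%), and the median log2FC was -0.18. Npc2, which hands cholesterol to Npc1 in the lysosome, was at 22.9, 14.9 and 20.4 FPKM in IVM and 8.91, 9.51 and 8.61 FPKM in IVO (log2FC -1.01, adjusted p = 0.0175 from limma), but it was at the edge of the fold threshold, held the call in 7 of 17 alternatives and shares 593 exon bases with Isca2 on the opposite strand, which was at 6.84-10.9 FPKM in IVM and 0.44-0.89 FPKM in IVO. Among the fits without 1 sample, Npc2 kept its call only without IVM2. Stard5, a sterol transfer protein, was at 10.9, 6.55 and 11.1 FPKM in IVM and 4.02, 3.66 and 3.49 FPKM in IVO (log2FC -1.12, adjusted p = 0.0191 from limma), and lost its call without IVM1 (adjusted p = 0.0746), IVM3 (0.0607), IVO2 (0.0598) or IVO3 (0.0519) in limma. The call of Stard5 held in 9 of 17 alternatives. It was also lost with median-ratio scaling, quantile normalization and the length trend removed (with and without the block). Npc1, Lrp1 and Nceh1, the most abundant genes of the list that were not DEGs, had a log2FC of 0.10, 0.09 and 0.24.

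Vldlr, the receptor for very low density lipoprotein, was below the filter, at 0.53-0.74 FPKM in IVM and 0.15-0.44 FPKM in IVO. Soat2, which esterifies cholesterol for storage, was at 0.68-0.73 FPKM in IVM and 0.06-0.20 FPKM in IVO. Without the filter its log2FC was -0.60 (adjusted p = 0.0117 from limma), which was under the fold threshold. The IVO values of Soat2 correspond to only about 2.12 to 7.08 fragments per sample. Scarb1, the receptor for high density lipoprotein, had a log2FC of 0.10, which did not pass the test.

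**Figure D4:**
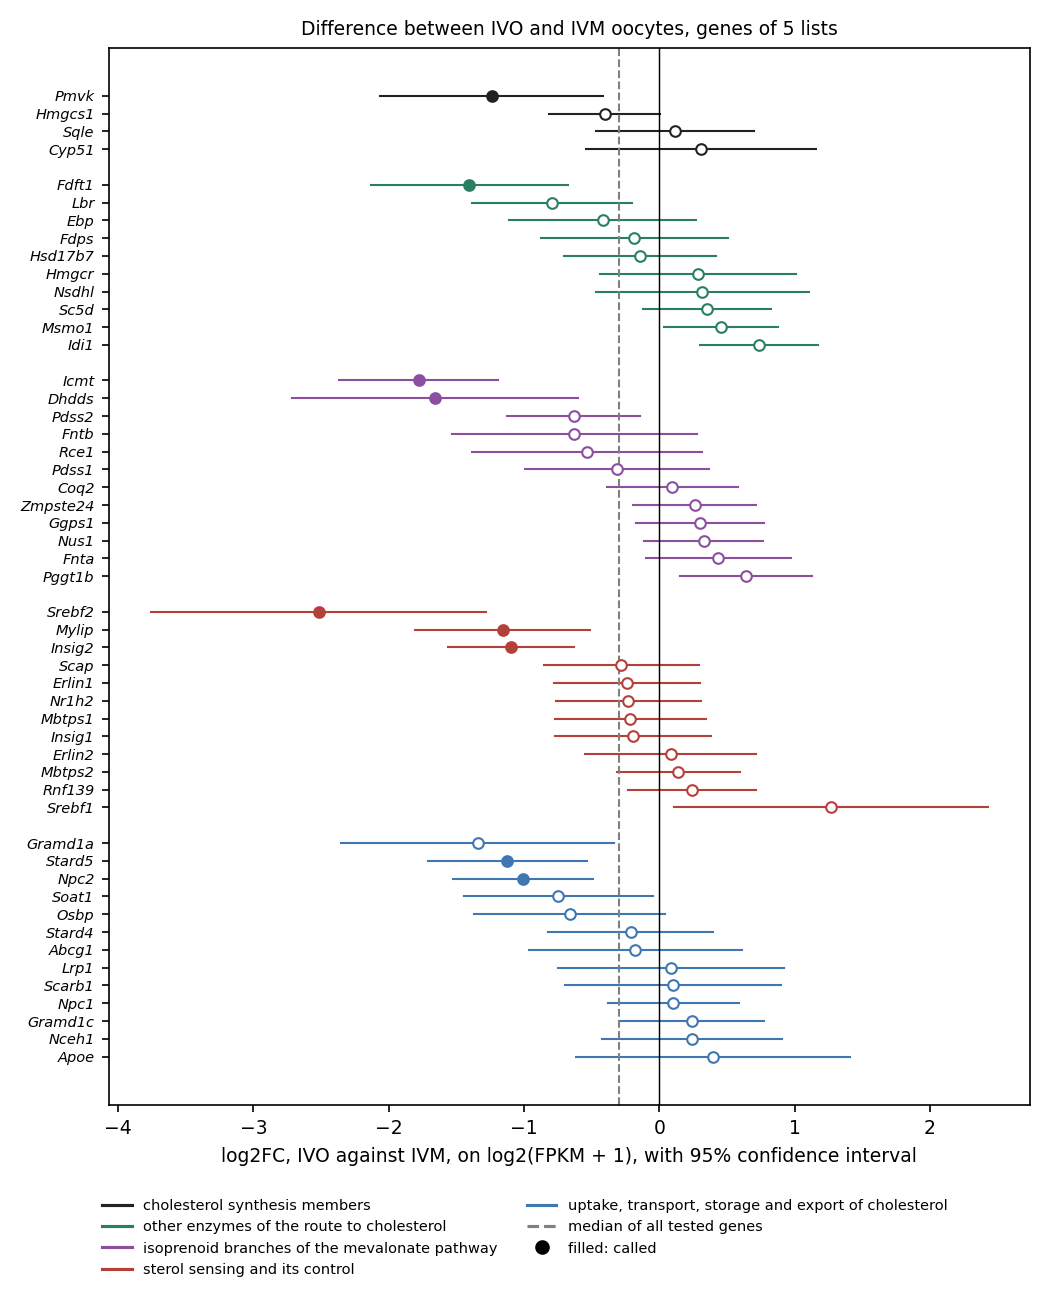
log2FC (IVO against IVM, on log2(FPKM + 1)) with 95% confidence intervals for the tested members and the tested genes of the 4 other lists that are shown, filled for DEGs, with the dashed line at the median of all tested genes (-0.30). Pmvk is the filled point among the members, and Srebf2 lies farthest to the left.

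The genes whose profile over the 6 samples was most like that of each tested member were found by Pearson's r of log2(FPKM + 1) over 13154 genes, as a description. They were AC165294.1 for Hmgcs1 (r = 0.991), Coa6 for Pmvk (r = 0.993), Stx17 for Sqle (r = 0.991) and Ncoa2 for Cyp51 (r = 0.984). With 6 samples in 2 groups, a high r can come from the group difference alone, and 95 genes had an r over 0.95 with Pmvk, 62 with Hmgcs1, 29 with Cyp51 and 27 with Sqle. The levels of the likest genes were unlike those of the members, as Coa6 was at 3.85-5.09 FPKM in IVM and 0.73-3.10 FPKM in IVO.

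Markers of other cells were set beside these differences. Cumulus cells make cholesterol, and the summed cumulus or granulosa markers overlapped between the groups. Most of that sum came from Fshr, Amhr2, Cyp19a1 and Nr5a2, and Nr5a2 was itself a DEG lower in IVO (28.3-39.2 FPKM in IVM and 13.5-17.8 FPKM in IVO). Has2 and Ptx3, which cumulus cells switch on during expansion, were at 0.04-0.14 and 0-0.03 FPKM in IVM and 0.17-0.37 and 0.07-0.17 FPKM in IVO. Tnfaip6 of the same list was at 0-0.14 FPKM in IVM and 0.34-0.49 FPKM in IVO. The groups overlapped for Ptgs2 (0.04-0.19 FPKM in IVM and 0.16-0.50 FPKM in IVO) and Vcan (0.08-0.19 and 0.11-0.18 FPKM). All of these values were under 1 FPKM. The summed blood cell markers were higher in each IVO sample than in any IVM sample, although of the 8 markers Tyrobp and Cd68 alone separated the groups, with Tyrobp at 7.12 FPKM in IVO3. The part of either in the levels of the members was not tested.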

How the data were processed

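RNA from 6 pools of MII oocytes (3 IVM, 3 IVO) was amplified with SMART-Seq v4, which primes on poly(A) tails and keeps no strand, so that a change in tail length and a change in transcript number cannot be told apart. Per the study's methods and the submitters' processing notes, reads were trimmed with SeqPrep and Sickle, aligned to GRCm39 with HISAT2 (2.1.0) and quantified with RSEM (1.3.3). The authors deposited FPKM values per gene and sample, which are normalized to depth and length and are not counts. DESeq2 (1.24.0) is listed among the submitters' tools, and its results were not used. The groups' mean columns equal the means of the samples and were not used.

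For this report, log2(FPKM + 1) of genes averaging 1 FPKM or more was fitted by group with limma (3.58.1, eBayes with trend, in R 4.3.3), with Benjamini-Hochberg adjustment over all 18818 tested genes (13154 Ensembl genes and 5664 assembled loci). All 4 tested members, and the genes of the other lists, were taken from this fit. The genes named were all members, all DEGs of each list, the 3 most abundant genes of each list that were not DEGs, and the gene most like each tested member. Vldlr, Soat2, Scarb1, Srebf1, Tm7sf2, Mvk, Msmo1 and the marker genes were named in addition. Some genes and 1 promoter that these rules cover are not reported here, while counts and medians of the lists include them. The members and lists were chosen with earlier results of these data known. Depth was inferred from the steps of low FPKM values of 13829 genes with 1 transcript, and levels of 3 fragments cover counting error only. Promoters were read from GRCm39 at the starts of the canonical GENCODE M39 transcripts, and exons that overlap those of another gene were found in the same annotation. The procedure was checked on simulated data. Alternatives were another pseudocount (0.1), other filters (none, 5 FPKM), median-ratio and quantile scaling, removal of the trend with length, a replicate block, no trend, Ensembl genes only and each sample left out. The replicate numbers did not mark pairs in the sources used here. That pools are independent is taken from the study's methods.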

Additional observations from a re-analysis of the deposited data

How the results depend on the processing

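The direction of Pmvk, Sqle and Cyp51 was kept in each alternative that could fit them, and that of Hmgcs1 in all but quantile normalization (0.12). Sqle and Cyp51 could not be fitted with a filter of 5 FPKM. The log2FC of Pmvk kept its sign but not its call with no filter (-1.24), median-ratio scaling (-0.92), quantile normalization (-0.73), the length trend removed (-0.99, also with the replicate block), eBayes without trend (-1.24) and no filter with a pseudocount of 0.1 (-1.24, chosen after seeing the data). The number of members that were DEGs lower in IVO was 0 in these fits. Leaving out 1 sample at a time gave -1.62 to -0.88 for Pmvk, -0.47 to -0.31 for Hmgcs1, 0.0036 to 0.25 for Sqle, 0.10 to 0.66 for Cyp51, 0 to 1 members as DEGs lower in IVO and a median of -0.20 to -0.05. The median of the members was -0.82 with a filter of 5 FPKM, which left Hmgcs1 and Pmvk alone, 0.12 with median-ratio scaling, 0.33 with quantile normalization, 0.054 with the length trend removed (with and without the block) and -0.41 with no filter and a pseudocount of 0.1, over all members. Medians under another filter, here and for the lists below, are over another set of genes.

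For the 15 other enzymes, the number of DEGs lower in IVO was 1 with quantile normalization and with the length trend removed with the block, the number higher was 1 (Idi1) under median-ratio and under quantile scaling, and the median was 0.16 and 0.36 there. For the isoprenoid branches, the number lower was 1 with no filter, median-ratio scaling, quantile normalization, the replicate block, the length trend removed (with and without the block) and no filter with a pseudocount of 0.1, the number higher was 1 (Pggt1b) with quantile normalization, and the median was 0.19 with median-ratio scaling, 0.40 with quantile normalization and 0.092 with the length trend removed (with and without the block). For sterol sensing, the number lower was 2 with a filter of 5 FPKM, with median-ratio scaling and with the length trend removed and 1 with quantile normalization and with the length trend removed with the block, the number higher was 1 (Srebf1) with quantile normalization, and the median was 0.062 under median-ratio and 0.26 under quantile scaling. For uptake and transport, the number lower was 0 with median-ratio scaling, quantile normalization and the length trend removed (with and without the block), 1 with the replicate block and 4 with no filter and a pseudocount of 0.1, and the median was 0.10 with a filter of 5 FPKM and 0.31 with quantile normalization.

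Without 1 sample, the other enzymes had 1 to 3 DEGs lower and 0 higher (median -0.29 to 0.08), the isoprenoid branches 1 to 2 lower and 0 higher (-0.21 to -0.03), sterol sensing 2 to 4 lower and 0 to 1 higher (-0.32 to -0.07) and uptake 0 to 2 lower and 0 higher (-0.30 to -0.01). Over all genes, 2276 to 3174 were then DEGs lower and 82 to 130 DEGs higher (median -0.33 to -0.27), against 3366 lower and 114 higher with all samples. The number lower over all genes was 2130 with median-ratio scaling, 1580 with quantile normalization, 1511 with the length trend removed, 741 with the length trend removed with the block and 1972 with Ensembl genes only, and the number higher was 385, 1097, 557 and 188 in the first 4 of these. The median over all genes was -0.37 with a pseudocount of 0.1 (with and without the filter), -0.041 with median-ratio scaling, 0.17 with quantile normalization, 0.051 with the length trend removed (with and without the block) and -0.18 with Ensembl genes only. The cause of these changes was not tested.

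The replicate numbers were not treated as pairs, since same-numbered IVM and IVO samples had correlations of their deviations of -0.06, -0.02 and -0.11, and no sample correlated best with its own number. With the replicate number as a block, Pmvk kept its call (log2FC -1.24), 2899 genes were DEGs lower and 92 DEGs higher in IVO, and Dhdds, Mylip and Npc2 lost their calls. Depth limits Mvd, which was at about 3 fragments in IVO samples, and Dhcr7 and Soat2 in IVO. Each fit without 1 sample kept 2 samples in that group.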
